A study of Mus musculus with 8 samples.

Results

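The Gimap genes (GTPase of the immunity-associated protein family) are a cluster of neighbouring genes on mouse chromosome 6 that encode small GTP-binding proteins of lymphocytes. Their levels were read from naive T cells of mice with and without a T cell deletion of Trappc1. The 8 members analysed, Gimap1, Gimap3, Gimap4, Gimap5, Gimap6, Gimap7, Gimap8 and Gimap9, were taken by gene symbol from the table of every library, out of 23337 symbols. Each member had 1 row in each table, and all 8 passed the filter of a mean of at least 1 TPM that left 11786 genes for testing. TPM is a length-corrected share of transcripts, so levels can be compared between genes.

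The study asked, by its title, whether naive T cells need Trappc1 to survive. CD4 KO and CD8 KO libraries came from naive CD4+ and CD8+ T cells of Trappc1 conditional knockout mice in which CD4-cre drives the deletion, and CD4 WT and CD8 WT libraries from the same cells of wild-type mice. There were 2 libraries in each of the 4 groups. All mice were 4 weeks old, and cells were sorted as CD62L+ CD44low from spleens and from lymph nodes that the labels abbreviate as mLNs. CD4-cre is a transgene active in developing T cells before the CD4 and CD8 lineages part, so it can delete a floxed gene in both. The sources used here give neither the deleted part of Trappc1 nor whether replicates were separate mice, so all p-values measure library-to-library spread, which may be purely technical.

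GIMAP proteins sit on membranes of the endoplasmic reticulum, Golgi apparatus, lysosomes, mitochondria or lipid droplets, where the GTP-bound forms can assemble into scaffolds. Loss of Gimap1 or Gimap5 in mice, and of Gimap5 in the lymphopenic BB rat, leaves few mature T cells in the periphery, so the family is known for keeping naive lymphocytes alive. Individual members have been tied to BCL2-family proteins at mitochondria, to autophagy and to the timing of cell death.

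The members shared a GTP-binding loop, the short stretch of the GTPase fold that holds the phosphates of GTP. It was found in each coding sequence as the codons for glycine, any residues, glycine, lysine, and serine or threonine, and its 24 bases are shown because they are the feature the family has in common. The sequences are from GENCODE M21 transcripts on GRCm38, and capitals mark the 11 bases identical in the first loop of all 8 members. Capitals in the glycine and lysine codons that the search named were fixed by the search itself.
Gimap1: GGcAggactGGgaccGGcAAgAGt
Gimap3: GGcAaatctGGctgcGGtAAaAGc
Gimap4: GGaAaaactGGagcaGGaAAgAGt
Gimap5: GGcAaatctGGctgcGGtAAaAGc
Gimap6: GGgAaaacaGGaagcGGgAAaAGt
Gimap7: GGgAaaacaGGaagtGGaAAgAGc
Gimap8: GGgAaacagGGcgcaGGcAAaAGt
Gimap9: GGgAagactGGaaatGGgAAgAGt
Gimap8, whose protein is known to carry several GTPase domains in a row, held 3 such loops in a coding sequence of 2064 bases, and the loop shown is its first. The other 7 had coding sequences of 873 to 984 bases. Over whole coding sequences, loop included, the family was diverse. Identity at aligned bases was 54.6% between Gimap1 and Gimap6 and 64.9% between Gimap7 and Gimap9. Pairs with Gimap8 came to between 70.4% (Gimap6) and 74.1% (Gimap9). Gaps were not counted and can spread a shorter sequence over the longer one of Gimap8, so these values are not comparable with the others.

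Gimap3 and Gimap5 stood apart as near copies of each other, with 89.9% identity over 898 aligned coding bases and the same loop. Their longest identical run was 140 bases, from chr6:48765681-48765820 on the minus strand in Gimap3 and from chr6:48752684-48752823 on the plus strand in Gimap5. It is shown because a read inside it cannot be given to either gene.
Gimap3 and Gimap5: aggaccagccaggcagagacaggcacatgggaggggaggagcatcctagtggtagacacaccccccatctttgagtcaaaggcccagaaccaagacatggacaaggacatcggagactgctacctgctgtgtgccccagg
Of all windows of 50 bases, 7.52% of those in the Gimap3 transcript and 4.53% of those in the Gimap5 transcript occurred in both, and none was shared between any other pair of members. Gimap3 stood at 1456 to 4443 TPM over the libraries and Gimap5 at 24.1 to 92.4 TPM. A small part of the Gimap3 reads could therefore amount to much of the Gimap5 level, and how much was not tested. The sources used here do not give how reads with several matches were treated, so the levels of Gimap3 and Gimap5 are uncertain, that of Gimap5 the more so. Strandedness is likewise not given, so reads of Gimap1 and of its annotated antisense gene Gimap1os cannot be told apart, nor those of Gm28053, a transcript annotated across Gimap7, Gimap1 and Gimap5.

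In the deposited tables the cluster ran over 123618 bases, from chr6:48647234-48770851 on the build mm10. From low to high coordinates the order was Gimap8, Gimap9, Gimap4, Gimap6, Gimap7, Gimap1, Gimap5 and Gimap3. Gimap6 and Gimap3 lie on the minus strand and the others on the plus strand. The 250 bases before the gene start are shown for Gimap3 and Gimap4, whose levels were the highest, and for Gimap5, the lowest. They are from RefSeq on GRCm38.p6, where all 8 members were found, and lie at chr6:48770852-48771101 on the minus strand for Gimap3, chr6:48684328-48684577 on the plus strand for Gimap4 and chr6:48745947-48746196 on the plus strand for Gimap5. Capitals mark matches on either strand to AGGAAG (ETS factors), CCACCC (KLF factors), TGTGGT (RUNX factors) and GTAAACA (FOXO factors), none of which overlap.
Gimap3: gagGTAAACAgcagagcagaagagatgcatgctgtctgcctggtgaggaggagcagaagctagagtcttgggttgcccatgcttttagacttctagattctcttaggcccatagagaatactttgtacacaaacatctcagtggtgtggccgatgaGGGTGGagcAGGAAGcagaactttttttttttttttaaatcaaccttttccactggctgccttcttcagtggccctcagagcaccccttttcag
Gimap4: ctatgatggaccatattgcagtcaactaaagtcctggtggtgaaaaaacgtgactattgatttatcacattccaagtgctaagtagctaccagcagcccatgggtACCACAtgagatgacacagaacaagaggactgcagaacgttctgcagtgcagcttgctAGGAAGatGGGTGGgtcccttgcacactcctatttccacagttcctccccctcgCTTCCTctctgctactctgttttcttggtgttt
Gimap5: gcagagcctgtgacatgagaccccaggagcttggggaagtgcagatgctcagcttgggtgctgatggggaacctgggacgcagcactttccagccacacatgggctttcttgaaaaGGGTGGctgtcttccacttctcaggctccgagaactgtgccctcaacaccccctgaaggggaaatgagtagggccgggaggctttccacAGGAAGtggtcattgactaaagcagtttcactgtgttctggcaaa
AGGAAG was found upstream of 6 of the 8 members, all but Gimap6 and Gimap8 in the window at the deposited start, and in 29.5% of 32851 RefSeq windows of this length. CCACCC was found for 4 members (28.1% of all windows), TGTGGT for 3 (14%) and GTAAACA for Gimap3 (3.17%). The window of a further annotated start of Gimap8 held both AGGAAG and CCACCC and is not in these counts. The TATA box letters TATAAA were found for Gimap6, and in 12.4% of all windows. The TCF/LEF letters CTTTGA were in 0 of the 8 windows and in 13.8% of all windows. The GATA letters AGATAA were also in 0 of the 8, and in 9.99% of all. A match is a run of letters and not a shown binding site.

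Aligned depth, estimated from the deposited coverage, was 3.03 to 4.01 gigabases per library. Trappc1 stood at 30.5 and 32.8 TPM in CD4 KO cells, against 78.7 and 55.0 TPM in CD4 WT cells, and at 56.9 and 45.6 TPM in CD8 KO cells, against 81.2 and 40.3 TPM in CD8 WT cells. The CD4 libraries did not overlap and the CD8 libraries did, and neither difference passed (limma, adjusted p = 0.235 for CD4 and 0.869 for CD8). All directions for CD8 cells therefore rest on the labels, since the targeted gene did not separate the libraries labelled KO and WT, and whether its rows span the deleted part is not known. Both CD8 KO libraries lay below CD8 WT replicate 1, at 81.2 TPM, and above CD8 WT replicate 2, at 40.3 TPM. One library labelled CD8 WT, replicate 2, differed from the rest, with 92226 TPM summed over 10 erythroid markers and 30244 TPM over 18 myeloid markers, against at most 2212 and 2285 TPM in the other 7 libraries. Its 12 T cell markers summed to 4014 TPM, against 5975 to 9129 TPM in the other 7. TPM is a share of a fixed total in every library. Results for CD8 cells are given with and without this library. It also enters the pooled spread behind every p-value of the main fit, those for CD4 cells included.

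The cluster was abundantly transcribed in all 4 groups. The 8 members together made up 9999.6 and 10712 TPM in CD4 KO cells, against 12509 and 9743 TPM in CD4 WT cells. They made up 10244 and 8730.1 TPM in CD8 KO cells, against 11191 and 4464 TPM in CD8 WT cells. About 1% of all transcripts thus came from the cluster in 7 libraries, from 0.873% to 1.25%, and 0.446% in CD8 WT replicate 2. In bulk samples fewer cells of a type and less RNA per cell cannot be told apart.

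The members split into an abundant and a scarce group that were the same in every library. Gimap3, Gimap4, Gimap1, Gimap6 and Gimap9 each stood at 429 TPM or more in all 8 libraries, while Gimap8, Gimap7 and Gimap5 stood at 228 TPM or less. Gimap3 ranked between the 12th and the 59th most abundant of all symbols and Gimap5 between the 2257th and the 4983rd. The near copies were thus at opposite ends in the deposited values, with Gimap5 at 0.00824 to 0.0235 of the Gimap3 level. How much of the Gimap5 level comes from reads shared with Gimap3 is not known. In CD4 KO cells every step of the order Gimap3, Gimap4, Gimap6, Gimap1, Gimap9, Gimap8, Gimap7, Gimap5 exceeded the spread of the libraries except the one from Gimap3 to Gimap4. In CD8 KO cells the order was the same, and Gimap8 and Gimap7 overlapped as well. In CD4 WT cells the order was Gimap3, Gimap4, Gimap1, Gimap6, Gimap9, Gimap8, Gimap7, Gimap5, with overlap between Gimap4 and Gimap1 and between Gimap6 and Gimap9. In CD8 WT cells the step from Gimap9 to Gimap7 was the one step between neighbours where libraries did not overlap. The mean read depth over a member ranged from 30.9 for Gimap5 in CD4 KO replicate 1 to 6545 for Gimap3.

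**Figure D1:**
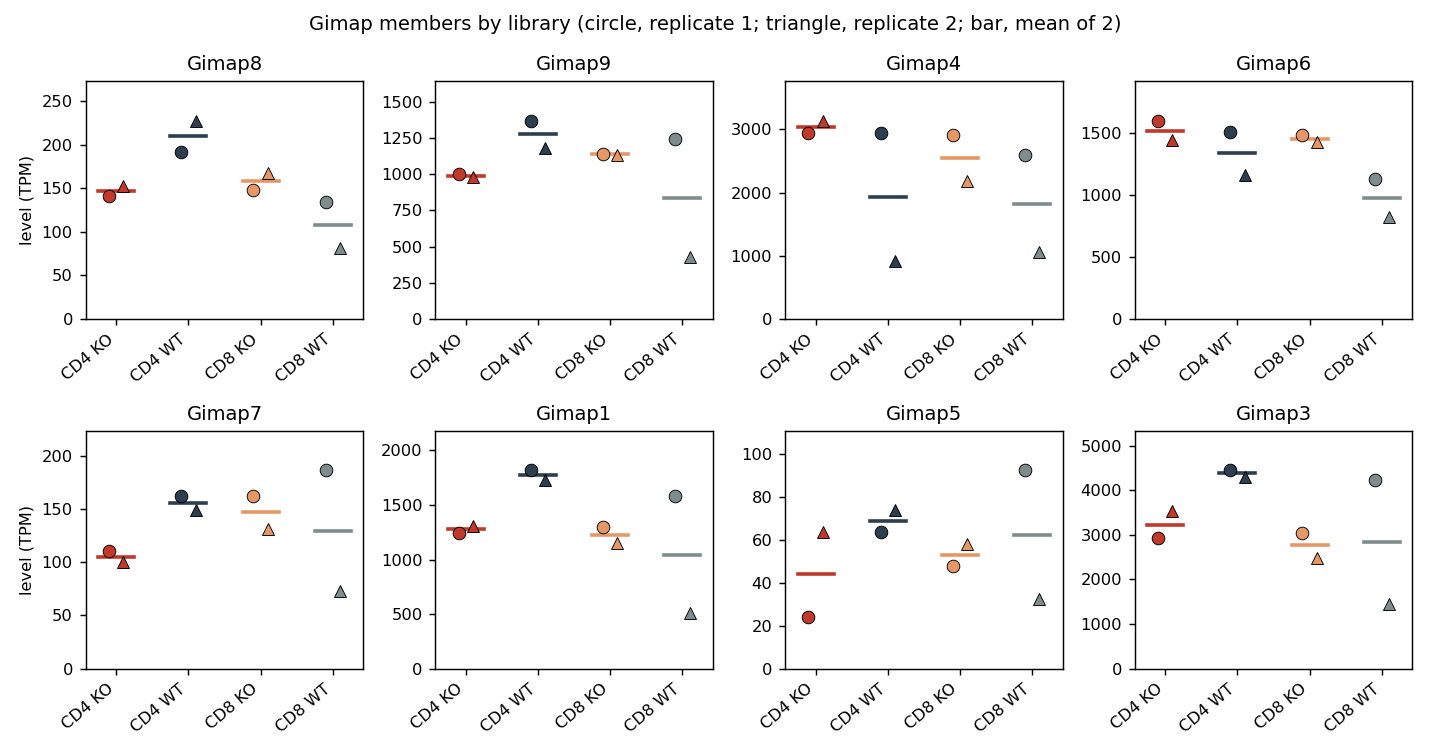
Level of each member (TPM, linear axis from 0) in CD4 KO, CD4 WT, CD8 KO and CD8 WT libraries, one panel per gene in genomic order, with circles for replicate 1, triangles for replicate 2 and bars for the mean of 2. Replicate 2 of CD8 WT is the lowest library for Gimap1, Gimap3, Gimap6, Gimap7, Gimap8 and Gimap9, and CD4 WT replicate 2, at 919.6 TPM, is the lowest for Gimap4.

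In CD4 T cells none of the members passed the test for a knockout difference. Gimap1, Gimap3, Gimap7, Gimap8 and Gimap9 were lower in both CD4 KO libraries than in both CD4 WT libraries, by 0.36 to 0.56 on the log2 scale. Gimap4 and Gimap6 had higher means in CD4 KO cells, and Gimap5 had a lower mean with overlapping libraries. The count called was 0 of 8 (limma, adjusted p from 0.454 to 0.775), beside 0.713% of all genes tested, and 0 members had an unadjusted p under 0.05, beside 16.7% of genes. The spread behind these values is pooled over all groups, CD8 WT replicate 2 included. In a fit of the CD4 groups only, the differences were the same and the SE of Gimap1 was 0.18, against 0.45. Unadjusted p was then 0.032 for Gimap1, 0.030 for Gimap7 and 0.041 for Gimap8 (limma). Again 0 of 8 were called, beside 7.44% of all genes. All differences are on the scale of log2(TPM + 1), KO minus WT, and counts of genes with higher or lower log2 levels go by the means on that scale. In the fit of all 8 libraries the smallest difference called among all genes was 1.54, more than the size of any member's.

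Gimap1, which mice need to keep mature T and B cells, had 1245 and 1309 TPM in CD4 KO cells, against 1817 and 1726 TPM in CD4 WT cells. The replicates lay close together and the groups did not overlap, at a log2 difference of -0.47 ± 0.45 (SE, 95% interval -1.48 to 0.54, limma adjusted p = 0.630). Gimap5, known from lymphopenic mouse and rat mutants and placed at lysosomes, had 24.1 and 63.8 TPM in CD4 KO cells, against 63.5 and 74.0 TPM in CD4 WT cells. Replicate 1 of the KO was low and replicate 2 lay within the WT range. The log2 difference was -0.79 ± 0.55 (adjusted p = 0.508) and ranged from -1.47 without CD4 KO replicate 2 to -0.10 without CD4 KO replicate 1.

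Gimap3, whose protein is reported to bind BCL2-family members, had 2925 and 3528 TPM in CD4 KO cells, against 4443 and 4304 TPM in CD4 WT cells. The groups did not overlap (-0.44 ± 0.45, adjusted p = 0.656). Gimap4, which speeds the execution of T cell death in mice, had 2951 and 3139 TPM in CD4 KO cells, against 2951 and 919.6 TPM in CD4 WT cells. The lower KO library, at 2951.30 TPM, exceeded the higher WT library, at 2950.61 TPM, by less than 1 TPM, so only CD4 WT replicate 2 set the groups apart. The log2 difference of 0.89 ± 0.56 (adjusted p = 0.458) was 0.04 without that library and 1.73 without CD4 WT replicate 1. Coverage of Gimap4 over its FPKM, a second deposited level, was 81.7% of the library median in CD4 WT replicate 2. In the other libraries it was 93.7% to 96.5%. The reason was not tested.

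Gimap6, which binds GABARAP-type proteins of autophagosomes, had 1600 and 1441 TPM in CD4 KO cells, against 1511 and 1161 TPM in CD4 WT cells. The groups overlapped (0.20 ± 0.29, adjusted p = 0.775). Gimap7, described in human cells as a partner that stimulates GTP hydrolysis by other family members, had 111 and 100.04 TPM in CD4 KO cells, against 162 and 149 TPM in CD4 WT cells. Its groups did not overlap (-0.56 ± 0.41, adjusted p = 0.529).

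Gimap8, the member with several GTPase domains, had 142 and 152 TPM in CD4 KO cells, against 192 and 228 TPM in CD4 WT cells (-0.51 ± 0.32, adjusted p = 0.454). Gimap9 had 1002 and 978 TPM in CD4 KO cells, against 1369 and 1181 TPM in CD4 WT cells (-0.36 ± 0.43, adjusted p = 0.713). In both genes the KO libraries lay close together and below the WT libraries. For the whole cluster, 5 of 8 members were lower without overlap, where 36.5% of all genes were, and 1 was higher without overlap, where 21.7% were.

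The share of genes with a lower mean log2 level was large in this comparison, at 58.0% of all tested, and the median over all genes was -0.16, beside -0.46 over the members. T cell markers were lower too, with 12 of them summing to 5975 to 6509.7 TPM in CD4 KO cells, against 8399 to 8754 TPM in CD4 WT cells, and 9 of the 12 had lower log2 levels. None of the 12 was listed at 0 in any library. Myeloid markers summed to 1390.2 to 2285 TPM in CD4 KO cells, against 88.2 to 287 TPM in CD4 WT cells, and 16 of 16 tested had higher log2 levels. B cell markers summed to 2024 to 2147 TPM in CD4 KO cells, against 3048 to 3376 TPM in CD4 WT cells. The part of these other transcripts in the member differences was not tested. Divided by the T cell marker total, the cluster total was 1.67 and 1.65 in CD4 KO cells, against 1.43 and 1.16 in CD4 WT cells. When libraries were scaled by T cell markers, the 5 members lower without overlap lay between -0.14 and 0.06 and Gimap9 turned to the positive value, while Gimap4 was at 1.31 and Gimap6 at 0.62, with 0 of 8 called. That scaling moved the median of all genes to 0.20.

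**Figure D2:**
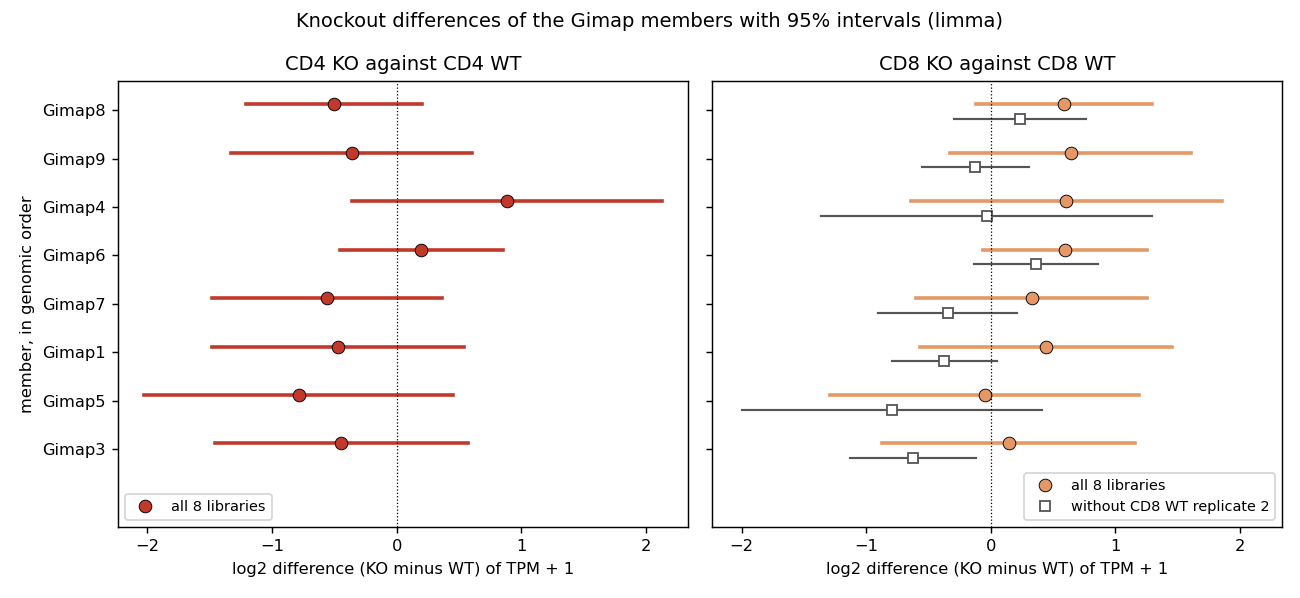
Log2 difference, KO minus WT, of each member in CD4 cells (left) and CD8 cells (right) with 95% intervals from limma, in genomic order. Filled circles use all 8 libraries and open squares leave out CD8 WT replicate 2. With all libraries every interval crosses 0, and without that library 6 of the 8 CD8 values lie below 0.

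In CD8 T cells none of the members passed either, and the values depended on the library labelled CD8 WT replicate 2. With all libraries 7 of 8 members had higher log2 levels in CD8 KO cells and 1, Gimap5, a lower one, where 47.3% of all genes had lower ones, with log2 differences up to 0.64, but under T cell marker scaling Gimap1, Gimap3 and Gimap7 turned negative. In mean TPM, Gimap3 was also lower in CD8 KO cells. Without CD8 WT replicate 2, 6 of 8 had lower log2 levels, and Gimap6 and Gimap8 kept higher ones. The count called was 0 of 8 (limma, adjusted p from 0.372 to 0.974), beside 0.297% of all genes, and 0 had an unadjusted p under 0.05, beside 15.1% of genes. Members higher without overlap were 2 of 8, Gimap6 and Gimap8, beside 23.0% of genes. Members lower without overlap were 0 of 8, beside 19.1% of genes.

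Gimap6 had 1481 and 1427 TPM in CD8 KO cells, against 1131 and 819 TPM in CD8 WT cells. Both KO libraries exceeded both WT libraries, with a log2 difference of 0.59 ± 0.29 (SE, 95% interval -0.06 to 1.25, limma adjusted p = 0.372), and of 0.36 without CD8 WT replicate 2. Gimap8 had 149 and 168 TPM in CD8 KO cells, against 134 and 81.7 TPM in CD8 WT cells. Again the KO libraries were the higher ones (0.59 ± 0.32, adjusted p = 0.411, and 0.23 without that library).

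Gimap1 had 1296 and 1149 TPM in CD8 KO cells, against 1579 and 510.4 TPM in CD8 WT cells. Both KO libraries lay between the WT libraries, so the value of 0.44 ± 0.45 (adjusted p = 0.660) was -0.37 without CD8 WT replicate 2. Gimap3 had 3047 and 2474 TPM in CD8 KO cells, against 4237 and 1456 TPM in CD8 WT cells. It lay between the WT libraries as well, at 0.14 ± 0.45 (adjusted p = 0.901), and at -0.63 without that library (adjusted p = 0.213).

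Gimap4 had 2919 and 2190.1 TPM in CD8 KO cells, against 2590 and 1063 TPM in CD8 WT cells. The groups overlapped, and the value of 0.61 ± 0.56 (adjusted p = 0.619) was -0.03 without CD8 WT replicate 2. Gimap5 had 48.1 and 58.2 TPM in CD8 KO cells, against 92.4 and 32.3 TPM in CD8 WT cells (-0.05 ± 0.55, adjusted p = 0.974, and -0.79 without that library). Gimap7 had 162 and 132 TPM in CD8 KO cells, against 186 and 72.6 TPM in CD8 WT cells (0.33 ± 0.41, adjusted p = 0.725, and -0.35 without that library). Gimap9 had 1142 and 1133 TPM in CD8 KO cells, against 1240 and 429 TPM in CD8 WT cells (0.64 ± 0.43, adjusted p = 0.5004, and -0.12 without that library). For Gimap5, Gimap7 and Gimap9 the KO libraries also lay between the WT libraries.

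Leaving out CD8 WT replicate 1 in place of replicate 2 gave 6 members called as higher in CD8 KO cells, namely Gimap1, Gimap3, Gimap6, Gimap7, Gimap8 and Gimap9, with log2 differences from 0.83 to 1.41. In the same fit 9.03% of all genes were called as higher and 15.6% in either direction, against 0.297% with all libraries. Each of these fits keeps a single CD8 WT library, which is assumed to vary like the other groups, and the fit without replicate 1 sets the KO against the library rich in erythroid and myeloid transcripts. T cell markers summed to 8060.0 to 8944 TPM in CD8 KO cells, against 9129 and 4014 TPM in CD8 WT cells.

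The low values of CD8 WT replicate 2 were close in size across members and T cell markers. Its members stood at 0.323 to 0.724 of their level in replicate 1, with a median of 0.370. The 12 T cell markers stood at 0.353 to 0.606, with a median of 0.394, and all genes at 5 TPM or more in both libraries had a median of 0.715. Gimap8 and Gimap6 had the highest ratios of the members, at 0.610 and 0.724. In the other 3 groups the median ratio of the members lay from 0.925 to 1.06, with Gimap5 in CD4 KO cells (2.65) and Gimap4 in CD4 WT cells (0.312) as the values farthest from 1. Per T cell marker total, the cluster total was 1.15 and 1.08 in CD8 KO cells, against 1.23 and 1.11 in CD8 WT cells, and these ranges overlapped.

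**Figure D3:**
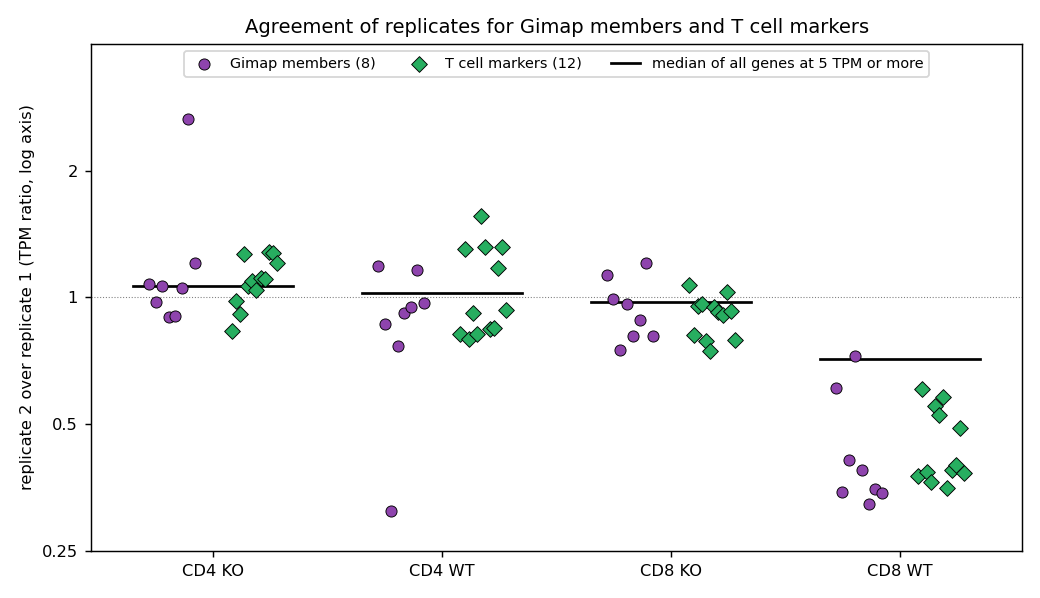
Level in replicate 2 over that in replicate 1 (TPM ratio, log axis) in each group, with circles for the 8 members, diamonds for 12 T cell markers and a line for the median of all genes at 5 TPM or more in both libraries. In CD8 WT members and T cell markers lie at medians of 0.370 and 0.394, below the line at 0.715, and in the other groups they scatter about 1 apart from 2 members.

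The CD8 and CD4 knockout differences were set against each other in the same fit. The difference of the differences, CD8 minus CD4, was positive for 7 of 8 members, from 0.40 to 1.09, and -0.28 for Gimap4, 1 of 8 below 0 where 38.8% of genes were. It was called for 0 of 8 members (limma, adjusted p from 0.701 to 0.933), beside 0% of all genes, and 1 member, Gimap8, had an unadjusted p under 0.05, beside 6.95% of genes. Without such scaling all 12 T cell markers had positive values too, with a median of 0.89, beside 0.81 over the members. Under T cell marker scaling Gimap3, Gimap5 and Gimap6 turned negative. Without CD8 WT replicate 2 the difference was 0.10 for Gimap1, 0.16 for Gimap6, 0.21 for Gimap7, 0.74 for Gimap8 and 0.24 for Gimap9. In that fit it was -0.18 for Gimap3, -0.92 for Gimap4 and -0.006 for Gimap5. Without CD8 WT replicate 1 it was called for 5 members, Gimap1, Gimap3, Gimap7, Gimap8 and Gimap9, where 9.74% of all genes were called in that fit, and without CD8 WT replicate 2 for 0.

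Between cell types, WT CD8 cells had lower log2 levels than WT CD4 cells for 7 of 8 members, all but Gimap4, where 67.0% of all genes had lower ones, and no member's difference passed. In mean TPM all 8 members were lower in CD8 WT cells. The T cell markers had lower log2 levels there too, 12 of 12. Gimap8 had 134 and 81.7 TPM in CD8 WT cells, against 192 and 228 TPM in CD4 WT cells (-0.99 ± 0.32, limma adjusted p = 0.449), the largest difference of the 8. Its libraries did not overlap, and it kept the direction without CD8 WT replicate 2, at -0.64. Without that library Gimap1 was at -0.17, Gimap3 at -0.05, Gimap6 at -0.23 and Gimap9 at -0.04. Gimap4 (0.65), Gimap5 (0.42) and Gimap7 (0.26) were then positive. The call count was 0 of 8, beside 0.195% of genes, with Gimap8 alone at an unadjusted p under 0.05, beside 8.67%. It was 5 without CD8 WT replicate 1 (Gimap1, Gimap3, Gimap7, Gimap8 and Gimap9), where 13.8% of all genes were called in that fit. Members lower without overlap were 4, Gimap1, Gimap3, Gimap6 and Gimap8, beside 24.8% of genes, and 0 were higher, beside 9.53%. Under T cell marker scaling Gimap5, Gimap6 and Gimap7 turned positive. In KO cells the same 8 members lay between -0.27 and 0.47 for CD8 minus CD4, with 0 of 8 called (adjusted p from 0.787 to 0.987), beside 0.280% of genes. There Gimap7 and Gimap9 were higher in both CD8 KO libraries (2 of 8, beside 23.6% of genes) and Gimap4 was lower (1 of 8, beside 25.8%).

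In the order of group means CD4 WT was the highest group for Gimap1, Gimap3, Gimap5, Gimap7, Gimap8 and Gimap9, and CD4 KO for Gimap4 and Gimap6. For Gimap1 and Gimap3 the step from CD4 WT to the next group, CD4 KO, was the one step without overlap. For Gimap8 CD4 WT exceeded CD8 KO, CD8 KO overlapped CD4 KO, and CD4 KO exceeded CD8 WT. For Gimap9 CD4 WT exceeded CD8 KO and CD8 KO exceeded CD4 KO, while CD4 KO overlapped CD8 WT. For Gimap5 and Gimap7 all neighbouring groups overlapped. For Gimap4 the step from CD4 KO to CD8 KO did not overlap and the later ones did, and for Gimap6 the step from CD4 WT to CD8 WT did not.

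Ratios between members within a library are free of any scaling between libraries. Of the 28 pairs, 1 ratio separated all 4 KO libraries from all 4 WT libraries, that of Gimap4 to Gimap3, and this pair was picked after its values were seen, so it carries no test. The ratio was 1.01 and 0.890 in CD4 KO cells, against 0.664 and 0.214 in CD4 WT cells. It was 0.958 and 0.885 in CD8 KO cells, against 0.611 and 0.730 in CD8 WT cells. The mean log2 ratio was 0.90 higher in KO cells, and 0.49 to 1.08 higher with any 1 library left out, the lowest without CD4 WT replicate 2. Without CD8 WT replicate 2, 6 of the 28 ratios separated KO from WT: Gimap4 and Gimap6 were higher relative to Gimap1 and to Gimap3, and Gimap6 relative to Gimap8 and to Gimap9. How often ratios of other gene pairs separate KO from WT was not counted, so neither the 1 nor the 6 has a background share. Gimap3 made up 28.3% to 44.2% of the cluster total over the 8 libraries, Gimap4 9.44% to 29.5% and Gimap5 0.241% to 0.825%.

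**Figure D4:**
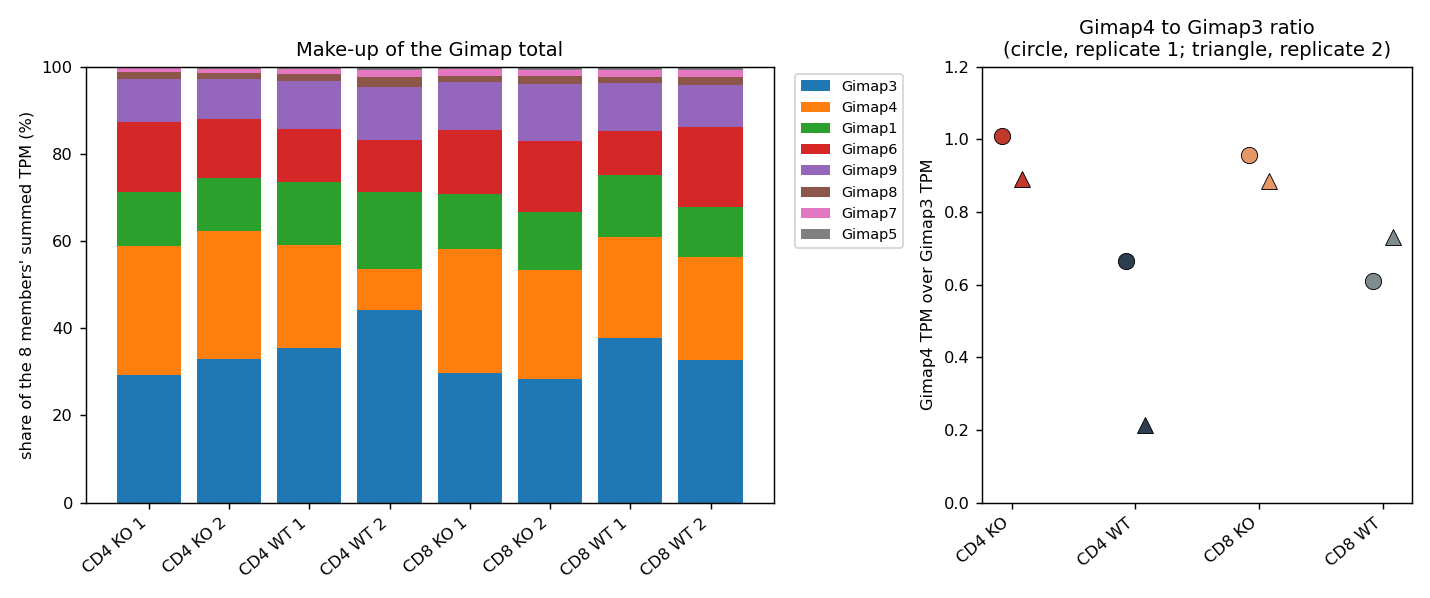
Left, share of each member in the summed TPM of the 8 members (%) in every library. Right, Gimap4 TPM over Gimap3 TPM by group, with circles for replicate 1 and triangles for replicate 2, on an axis from 0. The 4 KO libraries lie at 0.885 to 1.01, above the 4 WT libraries at 0.214 to 0.730.

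Averaged over the CD4 and CD8 knockout differences, an estimate added after the data were seen, Gimap4 was at 0.75 ± 0.39 (limma, adjusted p = 0.298), Gimap6 at 0.40 ± 0.21 (adjusted p = 0.293) and Gimap3 at -0.15 ± 0.32 (adjusted p = 0.821). The count called was 0 of 8, beside 4.12% of genes. Without CD8 WT replicate 1 it was 2, Gimap6 and Gimap9, both higher, and without CD8 WT replicate 2 it was 1, Gimap3, lower at -0.54 (adjusted p = 0.0481). In these fits 15.3% and 11.8% of all genes were called.

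Genes of the processes that GIMAP proteins are tied to were read from a list of 22 BCL2-family, autophagy-receptor, GSK3 and ceramide genes, all of which were tested. In CD4 KO cells 14 had higher and 8 lower log2 levels, with 0 called, beside 0.713% of all genes, and 8 at an unadjusted p under 0.05, beside 16.7%. In CD8 KO cells 13 had higher and 9 lower log2 levels, with 0 called, beside 0.297% of all genes, and 6 at an unadjusted p under 0.05, beside 15.1%. The list medians were 0.32 in CD4 cells and 0.26 in CD8 cells. Averaged over both cell types 3 of 22 rose, where 1.36% of all genes did, and 0 fell (limma), namely Bax, Bad and Map1lc3b. Bax, which permeabilises the outer mitochondrial membrane in apoptosis, had 1109 and 962 TPM in CD4 KO cells, against 496 and 374 TPM in CD4 WT cells. It had 963 and 1067 TPM in CD8 KO cells, against 512 and 278 TPM in CD8 WT cells, and the averaged log2 difference was 1.34 ± 0.24 (adjusted p = 0.0207). Bax was higher in every KO library than in any WT library, and the share of all genes with this separation is not given here. Within CD4 cells 21.7% of all genes were higher in KO without overlap, and within CD8 cells 23.0%. Map1lc3b, an LC3 protein that coats autophagosomes, had 2333 and 2341 TPM in CD4 KO cells, against 1064 and 735 TPM in CD4 WT cells. It had 1762 and 1971 TPM in CD8 KO cells, against 1036 and 755 TPM in CD8 WT cells (1.24 ± 0.22 averaged, adjusted p = 0.0186). Bad, a pro-apoptotic BH3 protein, had 45.04 and 53.2 TPM in CD4 KO cells, against 16.1 and 22.5 TPM in CD4 WT cells, and 55.3 and 54.8 TPM in CD8 KO cells, against 21.3 and 8.97 TPM in CD8 WT cells (1.61 ± 0.32 averaged, adjusted p = 0.0270). For Map1lc3b and Bad the KO and WT libraries did not overlap either. Other pro-apoptotic genes of the list went in both directions on average, none of them called. Bcl2l11 was at -1.21 ± 0.48 (limma, adjusted p = 0.175), Bid at -0.71 ± 0.29 (adjusted p = 0.191) and Bak1 at 1.21 ± 0.55 (adjusted p = 0.227). Leaving out any 1 of the CD4 KO, CD4 WT or CD8 KO libraries ended all 3 calls. So did no filter on low values, no intensity trend and removal of the trend with gene span. Leaving out CD8 WT replicate 1 or 2 kept the 3 calls and added other genes, some of them lower in KO cells. Each of those fits keeps a single CD8 WT library. Myeloid marker sums, which were higher in CD4 KO cells, moved with Bax, Bad and Map1lc3b in that cell type, and their part was not tested.

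A list of 24 genes that keep naive T cells quiescent and alive was read as well. In CD4 KO cells 1 rose, where 0.187% of all genes did, and 0 fell, and in CD8 KO cells 0 were called. In either cell type 8 had an unadjusted p under 0.05, beside 16.7% of all genes in CD4 and 15.1% in CD8. Tob1, an antiproliferative gene, had 179.5 and 135.0 TPM in CD4 KO cells, against 28.2 and 26.8 TPM in CD4 WT cells (2.46 ± 0.33, limma adjusted p = 0.0290). Leaving out any 1 CD4 KO, CD4 WT or CD8 KO library, T cell marker scaling, no filter on low values and no intensity trend each ended that call. With CD8 WT replicate 1 or 2 left out, 9 of the 24 were called in the CD4 comparison, Tob1 and Il7r among them, where 6.43% or 7.17% of all genes were called. In CD8 KO cells Tob1 had 32.9 and 36.3 TPM, against 27.8 and 27.9 TPM in CD8 WT cells (0.30 ± 0.33, limma adjusted p = 0.678). Its average over the cell types, 1.38, thus came mostly from CD4 cells. Averaged over the cell types Tob1 and Stat5a rose, where 1.36% of all genes did, and Foxp1 and Bach2 fell, where 2.76% did. Leaving out any 1 CD4 KO, CD4 WT or CD8 KO library and no filter on low values each ended all 4 of these calls. The called genes were Stat5a alone with the trend over gene span removed, Bach2 and Tob1 with no intensity trend, and Foxp1 and Il7r with T cell marker scaling. Without CD8 WT replicate 1 or 2 the count was 9, where 15.3% or 11.8% of all genes were called. Foxp1, a transcription factor that keeps naive T cells quiescent, stood at -1.12 ± 0.19 (adjusted p = 0.0177) and Bach2, a repressor of effector genes, at -1.54 ± 0.32 (adjusted p = 0.0311). Stat5a, a transducer of IL-7 signals, stood at 1.37 ± 0.25 (adjusted p = 0.0218).

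Of 21 genes that start within 500 kb of the cluster, 12 were tested and none was called in CD4 or CD8 KO cells (adjusted p of at least 0.315). The 8 that averaged at least 5 TPM were Krba1, Lrrc61, Repin1, Zfp775, Tmem176a, Gpnmb, 2410003K15Rik and Tra2a. The most abundant of them, the splicing regulator gene Tra2a, averaged 105 TPM, so the 5 abundant members stood out from their surroundings in level. Among these neighbours Tra2a was highest in CD8 WT replicate 2, at 144 TPM, the library in which 6 of the members were lowest.

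The genes whose pattern over the 8 libraries was most like the mean member profile, out of 9144 non-members averaging at least 5 TPM, were Gnpat, Zfp524, Gpr108, Oma1 and Miip. Their Pearson's r was 0.977 to 0.993 over 8 libraries and 0.805 to 0.948 over the 7 without CD8 WT replicate 2, all of these as a description of libraries that share groups. Gnpat, an enzyme of ether lipid synthesis, had 151 and 189 TPM in CD4 KO cells, against 234 and 199 TPM in CD4 WT cells, and 189.5 and 174 TPM in CD8 KO cells, against 199 and 78.5 TPM in CD8 WT cells. Like 6 of the 8 members, it was lowest in CD8 WT replicate 2. Among the members, Gimap1 and Gimap3 were the closest pair (0.97 over 8 libraries, 0.95 without that library), while Gimap6 against Gimap1 had an r of 0.65 over 8 libraries and of -0.49 without it.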

How the data were processed

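Naive T cell messenger RNA was sequenced in 8 libraries of 4 groups. Per the submitters' processing notes, HISAT aligned the reads to mm10. The sources used here do not name the program behind the gene tables. The deposited tables give TPM per gene, per the file headers, scaled by the authors to the same total in every library. FPKM and coverage per gene are deposited beside it, per the file headers, and served for an alternative and to estimate depth. The tables hold no read counts, so single genes have no counting interval.

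TPM was summed per symbol. Genes averaging 1 TPM or more were taken to log2(TPM + 1), which understates changes of low genes. The model (limma 3.58.1 in R 4.3.3, tables read with data.table version 1.17.8) had a mean for each group, a spread pooled over groups with an intensity trend, and 4 residual and 5.68 prior degrees of freedom. P-values were adjusted over all 11786 genes by the Benjamini-Hochberg method at 0.05, and the same code was tested on simulated data. Comparisons were KO against WT within CD4 and within CD8 cells, the difference of those, and CD8 against CD4 in WT and in KO cells. The members and gene lists were chosen with earlier results of these data known. Named beside the members are list genes called in a knockout comparison, neighbours averaging at least 5 TPM, the 5 genes most like the mean member profile, and Trappc1. Of the list genes 6 were matched through older symbols in RefSeq and 2 are absent. Coding sequences came from GENCODE M21 and upstream regions from RefSeq (biopython 1.88, pandas 2.3.3, numpy 2.4.6). Alternatives were the pseudocount, the filter, scaling, FPKM, the spread model, a replicate block and each library left out.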

Additional observations from a re-analysis of the deposited data

Results flagged for a closer look

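Gimap8 differed in direction between the cell types: both CD4 KO libraries lay below both CD4 WT libraries, and both CD8 KO libraries lay above both CD8 WT libraries. The CD8 difference minus the CD4 difference was 1.09 on the log2 scale (SE 0.45, 95% interval 0.09 to 2.09), which did not pass (limma, adjusted p = 0.701). It was 0.74 without CD8 WT replicate 2, the library rich in erythroid and myeloid transcripts, and 0.21 under T cell marker scaling. Groups of 2 libraries allow no check for a single library far from its group.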

How the results depend on the processing

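In CD4 cells 0 of 8 members were called under all 21 alternatives (lowest adjusted p, limma, 0.0964), and likewise for CD8 against CD4 in KO cells (0.252). With a library left out, members called ranged from 0 to 6 for CD8 KO against WT, 0 to 5 for the CD8 minus CD4 difference, 0 to 5 for CD8 against CD4 in WT and 0 to 2 for the averaged KO difference, all above 0 only without CD8 WT replicate 1, or replicate 2 for the averaged one. The other alternatives called 0. T cell marker scaling turned round Gimap9 in CD4 KO (0.061). For CD8 KO it turned Gimap1 (-0.021), Gimap3 (-0.32, and -0.023 with the trend over gene span removed) and Gimap7 (-0.13). For the CD8 minus CD4 difference it turned Gimap3 (-0.30), Gimap5 (-0.13) and Gimap6 (-0.49), and for CD8 against CD4 in WT Gimap5 (0.19), Gimap6 (0.062) and Gimap7 (0.10). For CD8 against CD4 in KO it turned Gimap8 (-0.26) and Gimap9 (-0.16), and removal of the span trend turned Gimap1 (0.049) and Gimap6 (0.054). The cause was not tested. With 1 library left out, ranges crossed 0 in CD8 KO for Gimap1 (-0.37 to 1.26), Gimap3 (-0.63 to 0.91), Gimap4 (-0.035 to 1.25), Gimap5 (-0.79 to 0.69), Gimap7 (-0.35 to 0.9999) and Gimap9 (-0.12 to 1.41). For the CD8 minus CD4 difference they did so for Gimap3 (-0.18 to 1.36), Gimap4 (-1.12 to 0.56) and Gimap5 (-0.0062 to 1.48), and in WT for Gimap4 (-0.83 to 0.85), Gimap5 (-1.06 to 0.42) and Gimap7 (-1.09 to 0.26). In KO they did so for Gimap1 (-0.15 to 0.022), Gimap5 (-0.27 to 1.10) and Gimap6 (-0.14 to 0.012), and for the averaged KO difference for Gimap3 (-0.54 to 0.23). Over all genes, calls over the alternatives ranged from 0 to 1260 in CD4, 0 to 1842 in CD8, 0 to 1148 for the CD8 minus CD4 difference, 0 to 1629 for CD8 against CD4 in WT and 11 to 1798 for the averaged KO difference.

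Same-numbered replicates showed little joint deviation (r from -0.057 to 0.110 between groups over 9152 genes). With 2 libraries a group this check cannot exclude that same-numbered libraries share a mouse or a batch, and the main model used no pairing. With a replicate block 0 of 8 members were called in CD4 or CD8 KO, and 29 and 26 of all genes, against 84 and 35 without the block. With 2 libraries a group, the 95% intervals of the members' KO differences reach 0.65 to 1.25 to either side, which limits what could be detected. Their width also reflects a spread pooled over all groups, CD8 WT replicate 2 included. For Gimap1 in CD4 cells the interval was -1.48 to 0.54, and -0.89 to -0.05 in a fit of the compared groups only. In CD8 cells it was -0.57 to 1.45, and -0.97 to 1.85 in such a fit.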
